A study of Mus musculus with 9 samples.

Results

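Lrrk2, Vps35, Dnajc13, Vps13c, Atp13a2, Tmem175, Scarb2 and Gpnmb, 8 genes with a known link to Parkinson disease whose proteins work in endosomes and lysosomes, were followed in the midbrain of the mouse. They were taken from the deposited expression table as the rows named by these 8 symbols, of 24487 rows in all, and each symbol matched 1 row. The table holds 4 libraries of dopaminergic neurons of the midbrain and 5 libraries of whole midbrain, all from mice of the C57BL/6 background. RNA of both groups was turned into cDNA and sequenced as single-end reads. Age, sex, genotype and treatment are not given in the labels, nor is the way in which RNA of the dopaminergic neurons was isolated. The title of the table mentions bacTRAP, in which ribosomes tagged in chosen cells are pulled down along with the transcripts on them. An effect of the isolation cannot be told apart from cell type. It is also not stated that each library is a separate animal, and p-values therefore measure the spread among these libraries, which may be technical.

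Endosomes sort proteins taken in from the cell surface or delivered from the Golgi, and lysosomes degrade what is sent on to them. Inherited forms of Parkinson disease and common risk variants map to several steps of this route. LRRK2 is a kinase that phosphorylates Rab GTPases on endosomal and lysosomal membranes. VPS35 is the scaffold of the retromer, the coat that returns receptors from endosomes, and DNAJC13 is an endosomal co-chaperone that acts with sorting nexins and the WASH complex. VPS13C carries lipids between the endoplasmic reticulum and late endosomes or lysosomes. ATP13A2 exports polyamines from the lysosome, TMEM175 is an ion channel of its membrane, and SCARB2, also called LIMP-2, is an abundant protein of that membrane and a sorting receptor. GPNMB is a membrane glycoprotein best known from phagocytes loaded with lipid.

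Dopaminergic neurons make up a small share of midbrain cells, and the libraries differed as their labels say. The summed level of 6 markers of dopaminergic neurons (Th, Slc6a3, Slc18a2, Ddc, Nr4a2 and Pitx3) was 3646 to 4057 FPKM in dopaminergic neurons and 205 to 237 FPKM in whole midbrain. FPKM are fragments per kilobase of transcript, scaled to the mapped reads of the library. Levels of genes of unlike length can thus be set side by side only roughly, as length moved with the groups (below). The summed level of 12 markers of microglia and macrophages was 8.51 to 14.0 FPKM in dopaminergic neurons and 157 to 210 FPKM in whole midbrain, or 5.96% of the whole midbrain mean. Markers of astrocytes stood at 14.1% of the whole midbrain mean, those of oligodendrocytes at 6.99%, of their precursors at 16.4%, of endothelial cells at 1.39%, of mural cells at 3.38% and of other neurons at 17.6%. Every one of these 48 markers was lower in all dopaminergic libraries than in any whole midbrain library, and none was at 0 in the dopaminergic libraries. In such bulk samples fewer cells of a type and less RNA per cell cannot be told apart. The depth, estimated from the FPKM of 1 read in single-exon genes, was 47.6 to 63.0 megareads for dopaminergic neurons and 16.4 to 33.6 megareads for whole midbrain. Whole midbrain library 2 stood apart from its group, with correlations of log2 values across genes of 0.903 to 0.906 with the other whole midbrain libraries, which correlated with each other at 0.947 to 0.962.

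Upstream sequences of 3 genes are shown because they belong to the member with levels near 0 in dopaminergic neurons (Gpnmb) and to the 2 members that took a larger share of their protein family there (Lrrk2 and Atp13a2, values below). They come from RefSeq on GRCm38.p6, the assembly also called mm10, and run 5′ to 3′ on the strand of the gene, all of them the plus strand. Only bases outside annotated exons are printed. Capitals mark the GC box GGGCGG on either strand.
Gpnmb, chr6:49036268-49036517, bases 250 to 1 before the transcript start: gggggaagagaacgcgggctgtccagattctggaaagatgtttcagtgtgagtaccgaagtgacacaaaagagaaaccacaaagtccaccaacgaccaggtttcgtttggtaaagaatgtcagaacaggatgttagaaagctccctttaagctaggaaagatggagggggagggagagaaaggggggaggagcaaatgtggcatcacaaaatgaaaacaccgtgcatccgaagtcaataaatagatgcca
Lrrk2, chr15:91672974-91673174, bases 250 to 50 before the start: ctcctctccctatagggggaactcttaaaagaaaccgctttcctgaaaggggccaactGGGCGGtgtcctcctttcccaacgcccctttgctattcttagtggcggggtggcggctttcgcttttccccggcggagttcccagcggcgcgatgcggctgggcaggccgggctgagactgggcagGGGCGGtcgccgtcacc
Atp13a2, chr4:140986671-140986872, bases 250 to 49 before the start: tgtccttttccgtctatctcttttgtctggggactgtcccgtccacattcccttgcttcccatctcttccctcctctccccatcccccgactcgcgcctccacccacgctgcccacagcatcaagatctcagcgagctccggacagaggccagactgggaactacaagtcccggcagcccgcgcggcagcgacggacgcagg
Over the 250 bases before the start, the Gpnmb window had a GC content of 47.2%, 7 CpG dinucleotides and no GC box, against a median of 52.4% GC and 6 CpG over 32851 RefSeq promoters, of which 32.74% held a GC box. The windows of the other 5 members in that table (Lrrk2, Atp13a2, Tmem175, Dnajc13 and Scarb2) had 65.2% to 73.6% GC, 19 to 39 CpG and 1 to 3 GC boxes. Annotated exons covered 250 bases of the Scarb2 and Dnajc13 windows, 236 of Tmem175, 49 of Lrrk2, 48 of Atp13a2 and 0 of Gpnmb. The GC box counted for Atp13a2 is not in its printed stretch. CACGTG, the core of the element bound by MiT/TFE factors of lysosomal genes, was in none of the 6 windows and in 6.02% of all promoters. These are descriptions of letters in a window, and say nothing about binding.

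Of the 8 genes, 7 averaged 1 FPKM or more over all 9 libraries and were tested, and Gpnmb did not reach that level. With limma on log2(FPKM + 1) and Benjamini-Hochberg adjustment over the 13106 genes tested, Atp13a2 and Vps35 were higher in dopaminergic neurons (adjusted p under 0.05), Vps13c, Scarb2 and Dnajc13 were lower, and Lrrk2 and Tmem175 did not pass. Of all genes tested, 38.3% were called higher and 36.0% lower, so 2 of 7 higher and 3 of 7 lower lie near the background. The median log2 fold change of the 7 genes was -0.22, and that of all genes tested was 0.04. In 4 of the 7 the values of both groups did not overlap, against 64.4% of all genes tested. Fold changes are on the log2(FPKM + 1) scale, which understates the change of low genes. When FPKM were rescaled to TPM, which fixes the sum of each library, the median of all genes moved by -0.64. With TPM 2069 of 12973 genes were called higher and 7667 lower, and of the 7 genes 0 were higher and 7 lower, so values under TPM are to be read against that shift.

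**Figure D1:**
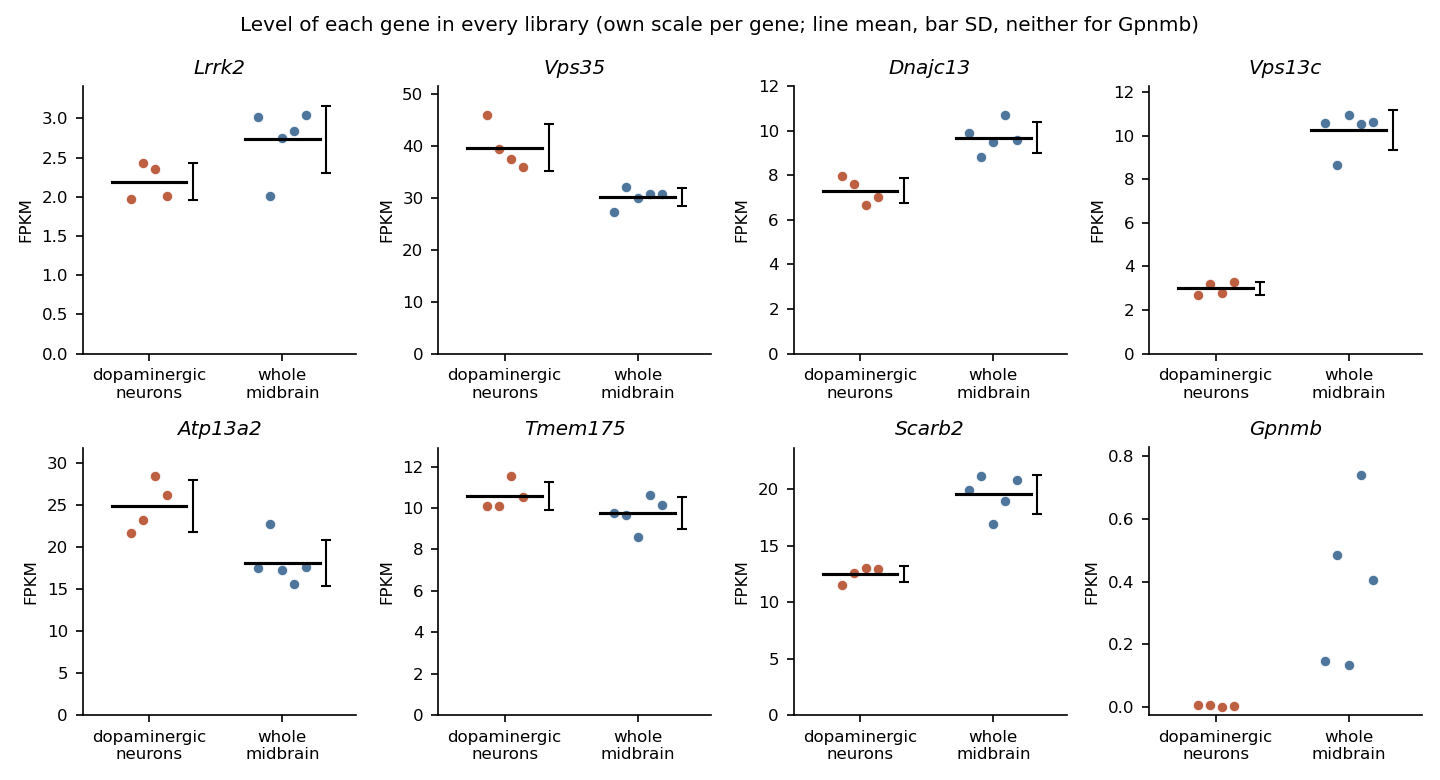
FPKM of the 8 genes (vertical axes, each from 0 and on its own scale) in the 4 libraries of dopaminergic neurons and the 5 of whole midbrain, 1 point per library, with the mean as a line and the SD as a bar except for Gpnmb. The groups overlap for Lrrk2, Atp13a2 and Tmem175 and are apart for Vps35, Dnajc13, Vps13c and Scarb2, and Gpnmb lies at or below 0.00579 FPKM in every dopaminergic library.

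By level in dopaminergic neurons, Vps35 came first at a mean of 39.6 FPKM, followed by Atp13a2 at 24.9, Scarb2 at 12.5, Tmem175 at 10.6, Dnajc13 at 7.31, Vps13c at 2.99 and Lrrk2 at 2.19 FPKM, with Gpnmb last. Each of these steps held in 4 of 4 dopaminergic libraries, although the ranges of Scarb2 and Tmem175 over the libraries touched. In whole midbrain the order was Vps35 at 30.1 FPKM, Scarb2 at 19.5, Atp13a2 at 18.2, Vps13c at 10.3, Tmem175 at 9.77, Dnajc13 at 9.69, Lrrk2 at 2.73 FPKM and Gpnmb. There Scarb2 exceeded Atp13a2 in 3 of 5 libraries, Vps13c exceeded Tmem175 in 3 of 5 and Tmem175 exceeded Dnajc13 in 2 of 5, so these neighbours did not differ beyond their spread. Vps13c thus stood among the middle levels of whole midbrain and just above Lrrk2 in dopaminergic neurons. These orders are not corrected for gene length, which moved with the groups as given below.

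The kinase gene Lrrk2 (chromosome 15, 91673224 to 91816124, plus strand, mm10) was low in both groups. It had 1.97, 2.44, 2.36 and 2.01 FPKM in dopaminergic neurons 1 to 4, against 3.02, 2.01, 2.75, 2.84 and 3.05 FPKM in whole midbrain 1 to 5. Whole midbrain library 2 lay among the dopaminergic values and the other 4 whole midbrain libraries above all of them. The means were 2.19 ± 0.236 FPKM in dopaminergic neurons (SD, n = 4) and 2.73 ± 0.424 FPKM in whole midbrain (SD, n = 5), a log2 fold change of -0.22 (SE 0.11) that did not pass in limma (adjusted p = 0.0931). Without whole midbrain library 2 it was -0.30 and passed (adjusted p = 0.00799), and with library weights it was -0.29 and passed (adjusted p = 0.00555). With TPM it was -0.87 and passed (adjusted p = 0.00134), or -0.27 relative to the median of all genes, against -0.26 as reported. Its sign was positive with quantile normalization (0.21) and after a correction for exonic length (0.20), and neither passed.

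Its homologue Lrrk1, a kinase best known from bone-resorbing cells, had a mean of 0.117 ± 0.0639 FPKM in dopaminergic neurons (SD, n = 4) and 0.691 ± 0.165 FPKM in whole midbrain (SD, n = 5). Lrrk2 therefore made up 96.1%, 98.2%, 93.6% and 91.8% of the summed FPKM of both homologues in dopaminergic neurons 1 to 4, and 81.5%, 72.6%, 87.1%, 77.6% and 79.6% in whole midbrain 1 to 5. Every dopaminergic library was above every whole midbrain library, with means of 94.9 ± 2.79% in dopaminergic neurons and 79.7 ± 5.28% in whole midbrain (SD, n = 4 and 5). The two-sided exact permutation test over libraries gave p = 0.0159, the smallest value that 4 libraries against 5 can give, or 0.0317 after adjustment over the 6 families compared. A share within a library does not move with the scaling of that library.

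Among 15 further genes of the LRRK2 pathway (Lrrk1, Rab substrates, the phosphatase that acts on them and their effectors), 12 were tested and limma called 5 higher and 1 lower, with a median log2 fold change of 0.40. Counts of this and the later lists are to be read against all genes tested, of which 38.3% were higher and 36.0% lower. The 5 of 12 higher lie near that background. Rab12, a Rab GTPase phosphorylated by LRRK2, rose most, at 51.1 ± 1.03 FPKM in dopaminergic neurons and 24.6 ± 1.68 FPKM in whole midbrain (SD, n = 4 and 5; log2 fold change 1.03, adjusted p = 4.3e-07). Spag9, which encodes the motor adaptor JIP4, fell to 30.5 ± 1.77 FPKM in dopaminergic neurons, against 50.7 ± 7.04 FPKM in whole midbrain (log2 fold change -0.70, adjusted p = 0.00022). Corrected for exonic length, Rab12 and Spag9 stood at 0.92 and -0.31. With TPM, which moved the whole table down as given above, 1 was higher and 5 lower. Without whole midbrain library 2 the list had 8 higher and 2 lower. Without dopaminergic library 3 or whole midbrain library 3, 2 genes were lower.

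Of the genes that shape endosomal sorting, Vps35 (chromosome 8, 85260392 to 85299497, minus strand) had 46.0, 39.4, 37.4 and 35.8 FPKM in dopaminergic neurons 1 to 4 and 27.3, 32.1, 29.9, 30.6 and 30.8 FPKM in whole midbrain 1 to 5. All 4 dopaminergic libraries were above all 5 whole midbrain libraries. The means of 39.6 ± 4.47 FPKM in dopaminergic neurons and 30.1 ± 1.76 FPKM in whole midbrain (SD, n = 4 and 5) gave a ratio of 1.32 and a log2 fold change of 0.38 (SE 0.087, adjusted p = 0.00246 in limma). The sign changed under 2 scalings, to -0.31 with TPM (adjusted p = 0.0267) and to -0.01 with quantile normalization (adjusted p = 0.918). Against the median of all genes Vps35 stood 0.34 above as reported, 0.29 above with TPM and at -0.12 with quantile normalization. Its exons share 171 of 8899 bases with Orc6 on the opposite strand, and no source used here states the handling of strand.

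The other subunits of the retromer core were called higher as well, although Vps26a and Vps26b changed sign with TPM and Vps26a also with quantile normalization. Vps29 had 160 ± 6.16 FPKM in dopaminergic neurons and 51.5 ± 3.05 FPKM in whole midbrain (SD, n = 4 and 5; log2 fold change 1.62, adjusted p = 3.1e-08). Vps26a and Vps26b, the paralogous arrestin-like subunits, had 29.7 ± 1.63 and 20.3 ± 0.304 FPKM in dopaminergic neurons, and 24.6 ± 1.07 and 15.8 ± 0.658 FPKM in whole midbrain. Vps35 made up 17.5%, 16.1%, 14.9% and 14.8% of the summed FPKM of these 4 genes in dopaminergic neurons 1 to 4, against 22.6%, 24.9%, 24.5%, 25.1% and 26.4% in whole midbrain 1 to 5. Its share was lower in every dopaminergic library, at a mean of 15.8 ± 1.26% in dopaminergic neurons and 24.7 ± 1.40% in whole midbrain (exact permutation p = 0.0159, two-sided, adjusted 0.0317). Vps35 thus was higher in FPKM in dopaminergic neurons, TPM and quantile normalization aside, and a smaller part of the summed FPKM of these 4 genes. Vps29 was the largest part of that sum and rose more than Vps35. As reported, Vps26a and Vps26b did not rise more than Vps35 (log2 fold changes 0.26 and 0.34, against 0.38). The share of Vps35 without Vps29 was not tested.

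The list of the rest of the retromer core and the sorting nexins held 10 genes, of which limma called 8 higher and 0 lower (median log2 fold change 0.64), while TPM gave 5 higher and 5 lower. The list of cargo receptors that the retromer carries went the other way, with 7 of 7 lower and a median of -1.13. Sorcs1, a sorting receptor with a VPS10 domain, fell to 0.970 ± 0.160 FPKM in dopaminergic neurons, against 6.21 ± 0.943 FPKM in whole midbrain (log2 fold change -1.86, adjusted p = 2.5e-07). Of 5 genes of the WASH complex, which builds actin on endosomes, 2 were higher and 2 lower (1 and 4 with TPM). Ccdc53 had 34.3 ± 2.78 FPKM in dopaminergic neurons and 9.88 ± 1.53 FPKM in whole midbrain, and Fam21, the subunit that binds VPS35, had 7.66 ± 1.87 FPKM in dopaminergic neurons and 22.5 ± 1.08 FPKM in whole midbrain (log2 fold changes 1.71 and -1.46, adjusted p = 3.9e-07 and 2.4e-06).

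Dnajc13 (chromosome 9, 104151597 to 104262930, minus strand), the co-chaperone of endosomal sorting, had 7.96, 7.59, 6.67 and 7.02 FPKM in dopaminergic neurons 1 to 4, against 9.87, 8.82, 9.48, 10.7 and 9.56 FPKM in whole midbrain 1 to 5. The groups did not overlap. The mean was 7.31 ± 0.575 FPKM in dopaminergic neurons and 9.69 ± 0.689 FPKM in whole midbrain (SD, n = 4 and 5), which is 75.4% of the whole midbrain level (log2 fold change -0.36, SE 0.079, adjusted p = 0.0018 in limma). With TPM the value was -1.06 (adjusted p = 3.2e-05), or -0.46 relative to the median of all genes, against -0.41 as reported. After the correction for exonic length it was 0.06 and did not pass (adjusted p = 0.524).

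Length moved with the groups over the whole table. Of 1295 genes with at least 10000 exonic bases, 17.8% were higher and 59.8% lower in dopaminergic neurons, with a median log2 fold change of -0.46, against 52.8% higher and 24.2% lower for genes under 2500 bases, with a median of 0.51. Lrrk2 (11834 exonic bases), Dnajc13 (11938) and Vps13c (16299) belong to the longest class, and their values of -0.22, -0.36 and -1.50 compare with a middle range of -1.03 to 0.08 for that class. Only Vps13c of these 3 lay outside it. Vps35, with 8899 bases, lay above the middle range of its class, -0.76 to 0.27. For the class of Scarb2, Tmem175 and Atp13a2, which have 6285, 5928 and 6000 bases, that range was -0.63 to 0.44. Scarb2, at -0.61, and Tmem175, at 0.10, lay inside it, and Atp13a2, at 0.44, lay at its upper edge. Exonic bases count all annotated transcripts of a gene. The longest coding transcripts of Vps35, Tmem175, Atp13a2 and Scarb2 have 3474, 3956, 3956 and 4698 bases. The class of 2500 to 5000 exonic bases had a middle range of -0.50 to 0.72. Against that range Vps35 (0.38), Tmem175 and Atp13a2 lay inside and Scarb2 below. That class was formed by exonic bases and these genes were set against it by transcript length, so the measures are unlike. The position of Vps35 and Scarb2 thus depends on the measure of length, and no classes by transcript length were made. The part of length in these differences was not tested beyond the correction, which used exonic bases.

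**Figure D2:**
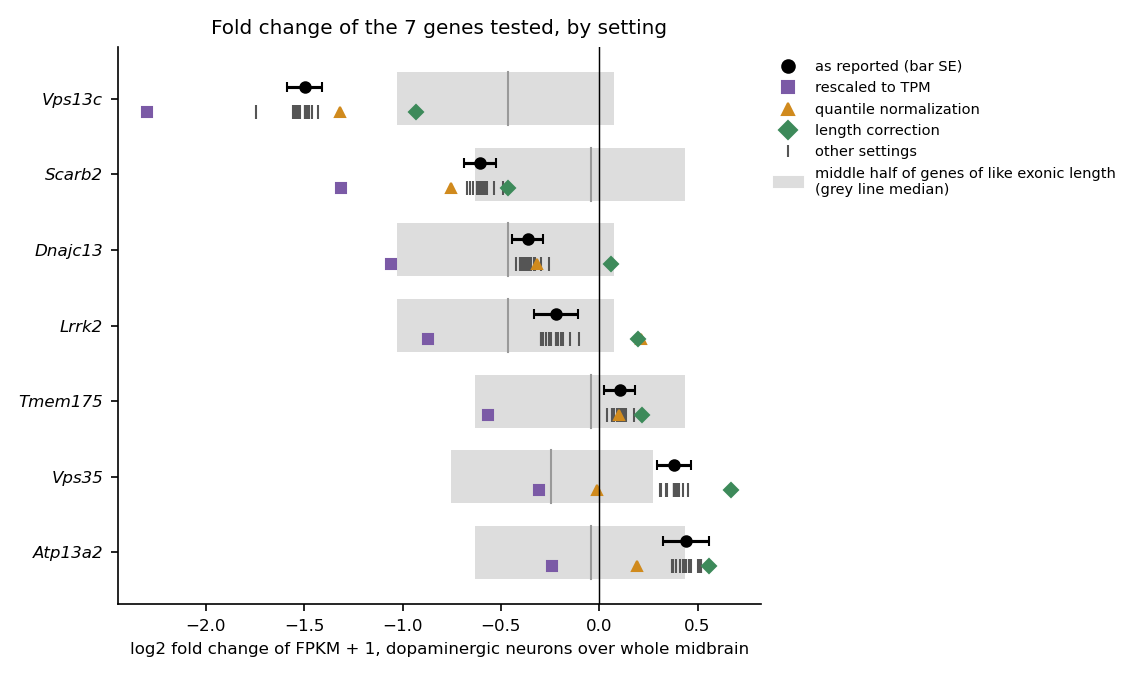
Log2 fold change of FPKM + 1 (horizontal axis, dopaminergic neurons over whole midbrain) of the 7 genes tested, as reported with its SE and under each other setting, over the quartile range of genes of like exonic length (grey, with their median). Vps13c and Scarb2 stay below 0 in all settings shown (-2.30 to -0.93 and -1.31 to -0.47), and the other 5 genes change sign in at least 1.

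Vps13c (chromosome 9, 67840396 to 67995634, plus strand) had the lowest log2 fold change of the 7 genes tested. It had 2.70, 3.20, 2.80 and 3.26 FPKM in dopaminergic neurons 1 to 4 and 10.6, 8.66, 10.97, 10.5 and 10.6 FPKM in whole midbrain 1 to 5. The highest dopaminergic value was well under the lowest of whole midbrain. The means of 2.99 ± 0.281 FPKM in dopaminergic neurons and 10.3 ± 0.917 FPKM in whole midbrain (SD, n = 4 and 5) put dopaminergic neurons at 29.1% of whole midbrain (log2 fold change -1.50, SE 0.088, adjusted p = 1.7e-07 in limma). Corrected for exonic length the log2 fold change was -0.93 (adjusted p = 5.3e-06).

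The other VPS13 genes, which encode lipid transfer proteins at other organelle contacts, were lower as well. Vps13a had 2.17 ± 0.247 FPKM in dopaminergic neurons and 6.72 ± 0.752 FPKM in whole midbrain, Vps13b had 2.94 ± 0.120 FPKM in dopaminergic neurons and 12.5 ± 1.32 FPKM in whole midbrain, and Vps13d had 4.15 ± 0.344 FPKM in dopaminergic neurons and 11.2 ± 0.577 FPKM in whole midbrain (SD, n = 4 and 5; adjusted p of 5.7e-08 to 9.7e-07). The share of Vps13c in the summed FPKM of these 4 genes was 21.6%, 25.7%, 24.1% and 26.3% in dopaminergic neurons 1 to 4, against 25.6%, 24.7%, 25.03%, 25.3% and 25.4% in whole midbrain 1 to 5. The means of 24.4 ± 2.097% in dopaminergic neurons and 25.2 ± 0.347% in whole midbrain differed by less than the spread of the dopaminergic libraries (exact permutation p = 0.571). All 4 genes have more than 10000 exonic bases.

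In the list of bridge-like lipid transfer proteins and their anchors, limma called 4 of 8 lower and 3 higher (median -0.27). The 4 lower genes have 13456 to 24771 exonic bases, and the 3 higher genes 2610 to 7131. After the length correction the 4 lower genes stood at -1.08 to -0.03 and the 3 higher at 0.93 to 1.51. Vps13b fell most (log2 fold change -1.78). Rab7, the GTPase of late endosomes, rose most, at 1200 ± 41.7 FPKM in dopaminergic neurons and 390 ± 98.4 FPKM in whole midbrain (log2 fold change 1.67, adjusted p = 4.2e-05).

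The lysosomal polyamine exporter gene Atp13a2 (chromosome 4, 140986873 to 141007701, plus strand) had 21.7, 23.2, 28.5 and 26.3 FPKM in dopaminergic neurons 1 to 4, against 17.5, 22.8, 17.4, 15.6 and 17.6 FPKM in whole midbrain 1 to 5. The groups overlapped only through whole midbrain library 2, which lay above dopaminergic library 1. The means of 24.9 ± 3.06 FPKM in dopaminergic neurons and 18.2 ± 2.73 FPKM in whole midbrain (SD, n = 4 and 5) gave a ratio of 1.37 and a log2 fold change of 0.44 (SE 0.117, adjusted p = 0.00619 in limma). With TPM the value was -0.24 (adjusted p = 0.0406), and with quantile normalization 0.19, which did not pass (adjusted p = 0.116). Against the median of all genes it stood 0.40 above as reported and 0.36 above with TPM.

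All 4 other P5-type ATPases of the family were lower in dopaminergic neurons, in contrast to Atp13a2 as reported. Atp13a4, of the same subclass as ATP13A2, had 0.167 ± 0.0526 FPKM in dopaminergic neurons and 6.24 ± 0.916 FPKM in whole midbrain, and Atp13a5 had 0.0748 ± 0.0385 FPKM in dopaminergic neurons and 4.53 ± 0.302 FPKM in whole midbrain (SD, n = 4 and 5; log2 fold changes -2.63 and -2.36, adjusted p = 1.8e-08 and 8.0e-09). Atp13a3 had 5.50 ± 0.449 FPKM in dopaminergic neurons and 11.4 ± 1.06 FPKM in whole midbrain. Atp13a1, which acts in the endoplasmic reticulum, had 2.42 ± 0.261 FPKM in dopaminergic neurons and 6.65 ± 1.36 FPKM in whole midbrain.

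Atp13a2 accordingly held 73.7%, 72.9%, 78.9% and 75.3% of the summed FPKM of the 5 family genes in dopaminergic neurons 1 to 4, against 39.4%, 42.2%, 38.0%, 34.3% and 39.0% in whole midbrain 1 to 5. Whole midbrain library 2, which overlapped in FPKM, did not overlap in share. The means were 75.2 ± 2.65% in dopaminergic neurons and 38.6 ± 2.84% in whole midbrain (SD, n = 4 and 5), a difference of 36.6 percentage points (exact permutation p = 0.0159, two-sided, adjusted 0.0317). Beside it, the summed markers of astrocytes stood at 173 to 203 FPKM in dopaminergic neurons and 1160 to 1418 FPKM in whole midbrain. Astrocytes are only 1 of the cell types with lower markers. The sums ranged from 1.39% of the whole midbrain mean for endothelial cells to 17.6% for other neurons. The part of transcripts of any of these cell types in the share was not tested.

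**Figure D3:**
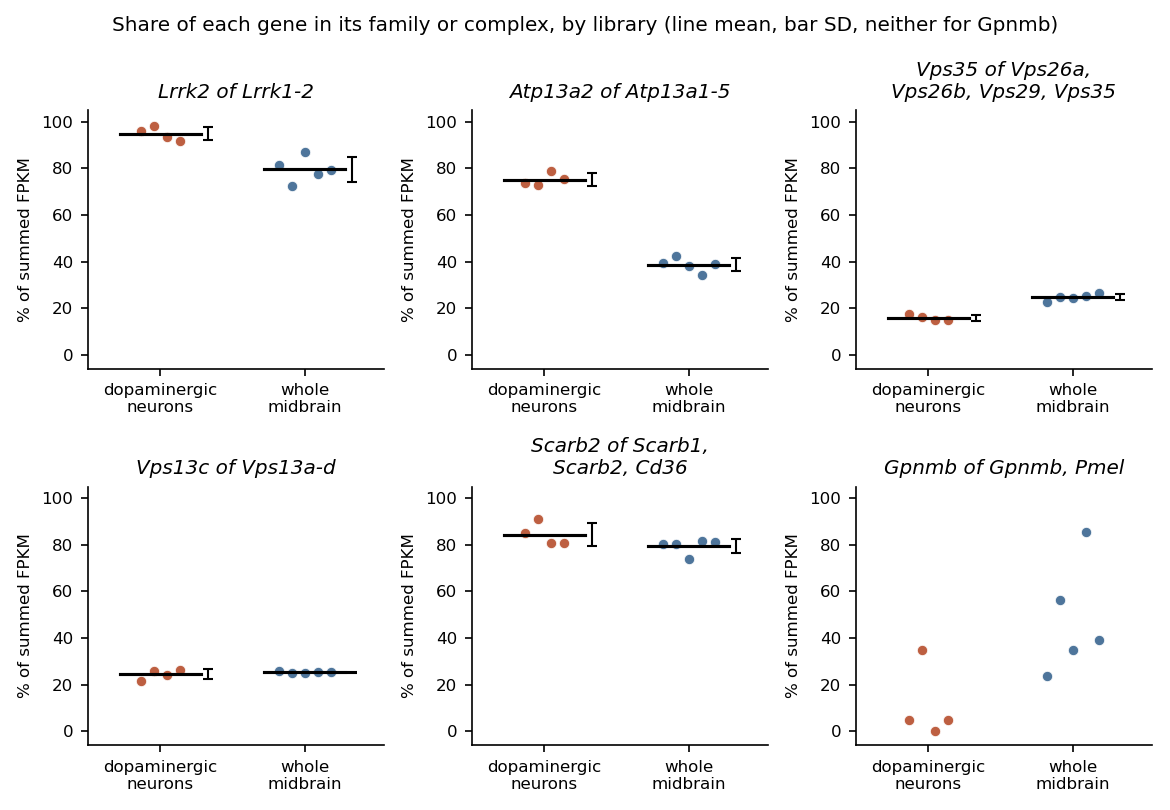
Share of each gene in the summed FPKM of its family or complex, in percent (vertical axes), in the 4 libraries of dopaminergic neurons and the 5 of whole midbrain, 1 point per library, with the mean as a line and the SD as a bar except for Gpnmb. The shares of Lrrk2 and Atp13a2 are higher and that of Vps35 lower in every dopaminergic library, while those of Vps13c and Scarb2 overlap.

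Tmem175 (chromosome 5, 108629810 to 108647770, plus strand), the lysosomal ion channel gene, had 10.1, 10.1, 11.5 and 10.5 FPKM in dopaminergic neurons 1 to 4 and 9.78, 9.66, 8.58, 10.6 and 10.2 FPKM in whole midbrain 1 to 5. The groups overlapped, with means of 10.6 ± 0.682 FPKM in dopaminergic neurons and 9.77 ± 0.762 FPKM in whole midbrain (SD, n = 4 and 5; log2 fold change 0.10, adjusted p = 0.247 in limma). The value was -0.57 with TPM (adjusted p = 0.00126), which is 0.03 above the median of all genes in that scaling, against 0.06 above as reported. It was 0.22 after the correction for exonic length and passed (adjusted p = 0.0279). Of its 5928 exonic bases, 2090 also belong to Dgkq, a diacylglycerol kinase gene on the opposite strand, which had 9.92 ± 0.647 FPKM in dopaminergic neurons and 11.2 ± 0.588 FPKM in whole midbrain. Without knowledge of the strand, reads from both genes cannot be told apart over those bases.

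Of 10 other channels and transporters of the lysosome 7 were tested, and limma called 1 higher and 5 lower (median -0.57). Tpcn1, an endolysosomal cation channel, fell to 2.50 ± 0.136 FPKM in dopaminergic neurons, against 7.81 ± 0.607 FPKM in whole midbrain (log2 fold change -1.33, adjusted p = 1.7e-07). Ostm1, the partner of the chloride transporter ClC-7, was the gene called higher, with a log2 fold change of 0.25 (adjusted p = 0.015) that was -0.43 with TPM. It was not called with quantile normalization (0.04), upper-quartile scaling (0.18) or the replicate block.

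Scarb2 (chromosome 5, 92443873 to 92505608, minus strand), which encodes the lysosomal membrane protein LIMP-2, had 11.5, 12.5, 13.0 and 12.9 FPKM in dopaminergic neurons 1 to 4 and 19.9, 21.2, 16.9, 19.0 and 20.8 FPKM in whole midbrain 1 to 5. Every dopaminergic library lay below every whole midbrain library. The means were 12.5 ± 0.681 FPKM in dopaminergic neurons and 19.5 ± 1.71 FPKM in whole midbrain (SD, n = 4 and 5), or 63.8% of whole midbrain (log2 fold change -0.61, SE 0.081, adjusted p = 6.3e-05 in limma). It was lower in each of the 21 other settings of the model, including TPM (-1.31), quantile normalization (-0.75) and the length correction (-0.47).

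Of the 12 genes tested around SCARB2 and glycosphingolipid hydrolysis, limma called 2 higher and 7 lower (median -0.65). Gla, the alpha-galactosidase of globotriaosylceramide, had 6.97 ± 1.06 FPKM in dopaminergic neurons and 4.28 ± 0.365 FPKM in whole midbrain (log2 fold change 0.59, adjusted p = 0.00046, but -0.01 with TPM). Gm2a, the activator of GM2 ganglioside breakdown, fell to 3.61 ± 1.001 FPKM in dopaminergic neurons, against 13.1 ± 1.70 FPKM in whole midbrain (log2 fold change -1.62, adjusted p = 3.4e-06).

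The share of Scarb2 among the 3 members of its receptor family did not differ beyond the spread, at 84.5 ± 4.98% in dopaminergic neurons and 79.5 ± 3.20% in whole midbrain (SD, n = 4 and 5; exact permutation p = 0.143, adjusted 0.171). Scarb1, the lipoprotein receptor of the family, had 2.30 ± 0.940 FPKM in dopaminergic neurons and 4.57 ± 0.519 FPKM in whole midbrain, and the fatty acid receptor gene Cd36 averaged under 1 FPKM in both groups.

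Of 9 further lysosomal membrane genes, 8 were lower in dopaminergic neurons and 1 was higher, with a median log2 fold change of -1.03. Cd63, a tetraspanin of late endosomes and lysosomes, fell to 11.8 ± 2.65 FPKM in dopaminergic neurons, against 85.2 ± 29.9 FPKM in whole midbrain (log2 fold change -2.71, adjusted p = 1.3e-06). Tmem192, used as a lysosome marker, rose to 25.04 ± 2.91 FPKM in dopaminergic neurons, against 13.5 ± 2.04 FPKM in whole midbrain (log2 fold change 0.85, adjusted p = 6.3e-05). Of the MiT/TFE transcription factors of lysosomal genes, Tfe3 was higher (13.7 ± 1.25 FPKM in dopaminergic neurons and 7.07 ± 0.969 FPKM in whole midbrain; log2 fold change 0.87, adjusted p = 2.8e-05). Tfeb was lower (1.57 ± 0.402 FPKM in dopaminergic neurons and 2.84 ± 0.658 FPKM in whole midbrain; log2 fold change -0.58, adjusted p = 0.0054), as was Mitf (-0.56). With quantile normalization neither was called, with -0.10 for Tfeb and 0.01 for Mitf. With TPM Tmem192 (0.19) and Tfe3 (0.24) were not called.

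**Figure D4:**
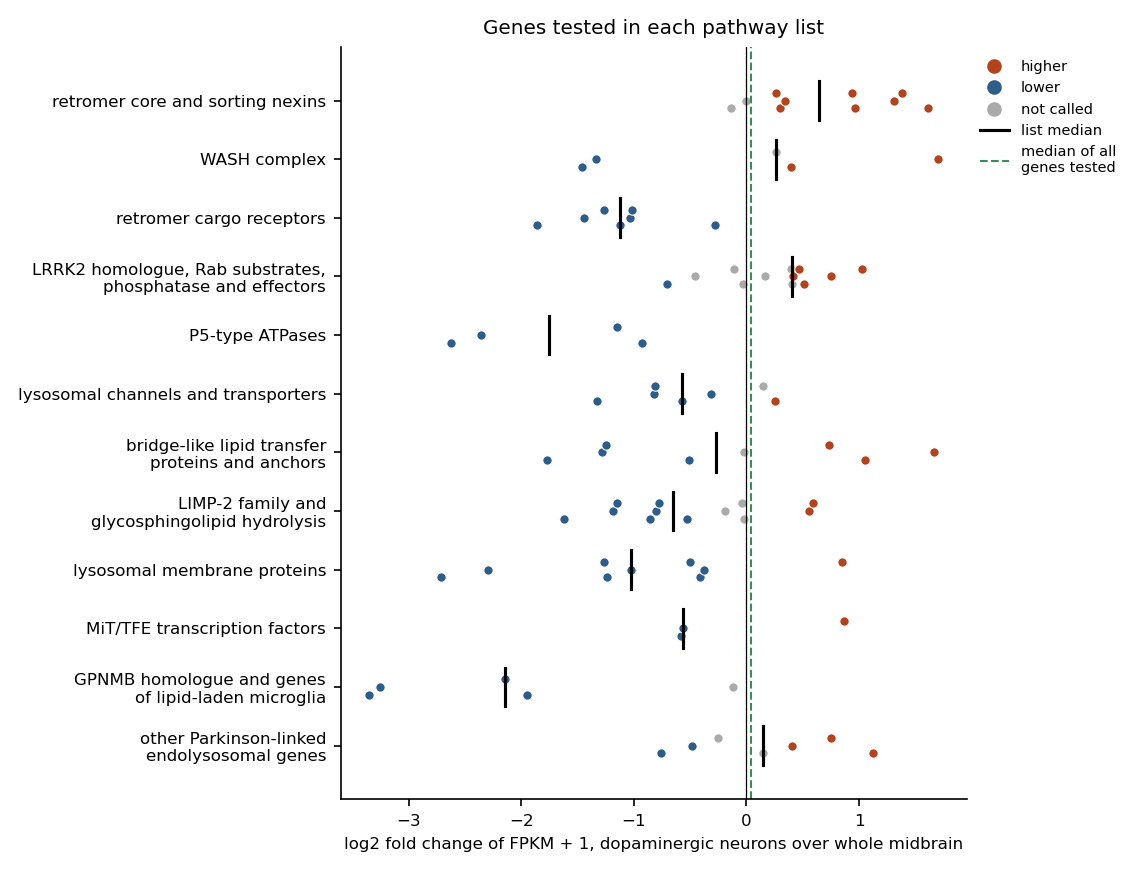
Log2 fold change of FPKM + 1 (horizontal axis, dopaminergic neurons over whole midbrain) of the genes tested in each pathway list, 1 point per gene, coloured by the call at an adjusted p under 0.05, with the list median as a black line and the median of all genes tested (0.04) as a dashed line. Retromer and sorting nexin genes lie mostly above 0, and cargo receptors, P5-type ATPases and lysosomal membrane genes mostly below.

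Gpnmb (chromosome 6, 49036518 to 49058182, plus strand) was at 0.00563, 0.00579, 0 and 0.00450 FPKM in dopaminergic neurons 1 to 4, against 0.147, 0.486, 0.135, 0.738 and 0.404 FPKM in whole midbrain 1 to 5. At the estimated depth these values correspond to 0.96, 0.96, 0 and 0.97 reads in dopaminergic neurons, that is to about 1 read in each of 3 libraries, and to 17.3, 39.6, 7.73, 63.0 and 47.3 reads in whole midbrain. The groups did not overlap (exact permutation p = 0.0159, two-sided, the smallest possible), and with no filter on low values limma gave an adjusted p of 0.00969. No fold is given at so few reads. The other 7 genes corresponded to at least 364 reads in every library.

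Gpnmb and its homologue Pmel, a protein of pigment cells, were both so low that their ratio rested on few reads. Gpnmb made up 4.63%, 34.8%, 0% and 4.63% of their sum in dopaminergic neurons 1 to 4, against 23.7%, 56.3%, 34.8%, 85.5% and 39.0% in whole midbrain 1 to 5 (exact permutation p = 0.0317, adjusted 0.0476), and the difference did not pass without dopaminergic library 1, 3 or 4 (p = 0.0714 each by exact permutation) or without whole midbrain library 2, 3, 4 or 5 (p = 0.0571 each by exact permutation). Of 10 other genes of lipid-laden microglia or related to Gpnmb, 5 were tested and 4 were lower (median -2.15). Tyrobp, an adaptor of microglial receptors that is also among the 12 microglial markers above, fell to 1.76 ± 0.984 FPKM in dopaminergic neurons, against 26.6 ± 8.94 FPKM in whole midbrain (log2 fold change -3.35, adjusted p = 2.3e-06). Trem2, also called lower, is another of those 12 markers, and its value is the median of the list. At a mean of 0.294 FPKM in dopaminergic neurons and 5.06 FPKM in whole midbrain, it reached the filter only through whole midbrain. The part of microglial transcripts in the level of Gpnmb was not tested.

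Of 7 other genes of endosomes and lysosomes linked to Parkinson disease, limma called 3 higher and 2 lower, with a median of 0.15, while TPM gave 0 higher and 4 lower. Rab39b, a neuronal Rab GTPase, rose to 38.7 ± 2.16 FPKM in dopaminergic neurons, against 17.7 ± 4.59 FPKM in whole midbrain (log2 fold change 1.13, adjusted p = 0.00036, but 0.47 and not called with TPM). Grn, the gene of progranulin, fell to 11.4 ± 1.30 FPKM in dopaminergic neurons, against 20.7 ± 6.70 FPKM in whole midbrain (log2 fold change -0.76, adjusted p = 0.0032).

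Genes whose profile over the 9 libraries was most like that of each of the 8 were found by the root mean square difference of log2(FPKM + 1), each profile centred on its own mean, among 12046 genes. For Lrrk2 they were Tcp11l2 and Atxn7, for Vps35 Aptx and Nsun4, for Dnajc13 Cbx5 and Dhx36, for Vps13c Nrcam and Map4k4, for Atp13a2 Cygb and Pcbp4, for Tmem175 Zcchc2 and Sco1, and for Scarb2 Zfp937 and Klf3, with differences of 0.04 to 0.07. For Gpnmb they were Cept1 and Pdzrn3, at 0.12 each. Between 30 and 128 genes lay within 0.1 of the first 7 members and 0 within 0.1 of Gpnmb. With 2 groups of libraries, any gene with a like fold change has a like profile.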

How the data were processed

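The authors deposited 1 table of FPKM per gene, made per the submitters' processing notes with TopHat2 2.0.8 and Cufflinks 2.1.1 on mm10. The sources used here give neither the annotation nor the options nor the handling of strand. Values have at most 6 significant digits in dopaminergic libraries and 10 in whole midbrain libraries, and this difference in form cannot be told apart from cell type. So many digits could come from averaging several outputs per sample, which no label records. If so, each whole midbrain value would be a mean of runs, and its SD, depth and read estimates would change in meaning. FPKM summed to 506466 to 521822 in dopaminergic libraries and to 309275 to 409130 in whole midbrain libraries. An FPKM of 0 can be a failed estimate.

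Groups were tested on log2(FPKM + 1) by limma 3.58.1 (R 4.3.3), two-sided with a mean-variance trend, over 13106 genes averaging 1 FPKM or more, with Benjamini-Hochberg adjustment and a threshold of 0.05. Shares within families were compared by exact permutation over libraries. The script was tested on simulated data. Depth was estimated from single-exon genes with an assumed fragment of 200 bases, so it is approximate. Exonic lengths, over all annotated transcripts of a gene, came from GENCODE for 94.57% of genes tested. The named genes were the 8 members, the genes of the family shares, the called gene with the largest rise and fall in each pathway list, and the 2 nearest profiles of each member. Mitf was named after its values were seen, 6 markers to check the labels, Orc6 and Dgkq for their overlap with members, and Trem2 as a list gene that is also a marker. A result on 1 gene of the lists is not reported here. The members and lists were chosen with earlier results of these data known. The alternatives were pseudocounts of 0.1 and 5, other filters (none, or a mean of 5 FPKM), 4 scalings, no trend, library weights, the replicate block, leaving out each library, and a length correction chosen after seeing the data. Replicate numbers are not stated to pair the libraries. Same-numbered deviations correlated at -0.05 to 0.02, which cannot exclude a pairing of small effect. Figures used matplotlib 3.10.9.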

Additional observations from a re-analysis of the deposited data

Results flagged for a closer look

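Of 28 groups of 4 or 5 values checked, 5 held a library far from the rest of its group, and chance alone gives about 1 in 20. Whole midbrain library 2 stood alone for 3 genes: it was the lowest of its group for Lrrk2 (2.008 FPKM) and Vps13c (8.665 FPKM) and the highest for Atp13a2 (22.81 FPKM). That library also had an FPKM sum of 409130, against at most 313252 in the other whole midbrain libraries, and its part in these values was not tested. Whole midbrain library 3 had the lowest share of Scarb2 in its family (73.89%). Dopaminergic library 2 had the highest share of Gpnmb in the sum with Pmel (34.83%), at about 1 read of Gpnmb.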

How the results depend on the processing

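The calls of Vps13c and Scarb2 kept their direction and passed in each other setting of the model. With TPM 0 of the 7 genes tested were higher and 7 lower (all genes 2069 and 7667), and log2 fold changes changed sign for Atp13a2 (-0.24), Vps35 (-0.31) and Tmem175 (-0.57). Quantile normalization left 0 higher and changed the sign of Lrrk2 (0.21) and Vps35 (-0.011), and the length correction that of Lrrk2 (0.20) and Dnajc13 (0.058). A minimum mean of 5 FPKM left 2493 genes lower, among fewer genes tested. Leaving out single libraries gave 2 members higher and 3 to 4 lower throughout. No paired design is given: with the replicate block 2 members were higher and 3 lower (all genes 4554 and 4355), with no change of a member's call. Family shares of Lrrk2, Atp13a2 and Vps35 had an unadjusted exact p of 0.0286 to 0.0357, the smallest possible, without each library in turn (differences of 13.5 to 17.1, 35.4 to 37.5 and -9.42 to -8.42 percentage points). That of Vps13c changed sign without dopaminergic library 1 (0.145; range -1.42 to 0.145), and that of Gpnmb did not pass in 7 of 9 such sets (-44.8 to -27.4) or without libraries with a gene at 0 (-33.2). The logit of the Gpnmb share has no value at 0, and without genes under 1 FPKM no share is left for Lrrk2 or Gpnmb. In the pathway lists, TPM gave 5 higher and 5 lower for the retromer core and sorting nexins, 1 and 4 for the WASH complex, 1 and 5 for the LRRK2 list, 0 and 4 for other Parkinson-linked genes, and 0 higher for lysosomal channels, glycosphingolipid hydrolysis, lysosomal membrane and MiT/TFE genes. The minimum of 5 FPKM left 3 cargo receptors, 1 P5-type ATPase, 3 channels, 4 glycosphingolipid genes and 0 MiT/TFE genes lower. Quantile normalization gave 2 retromer genes lower, 0 channels higher, 0 MiT/TFE genes lower, and 1 higher and 4 lower of the other Parkinson-linked genes. The LRRK2 list had 2 lower in 4 settings (no filter, quantile, upper-quartile and length correction), 8 higher and 3 lower with library weights, and 4 to 8 higher and 1 to 2 lower without single libraries. Channels had 0 higher with upper-quartile scaling and with the block, and 3 lower after the length correction. The causes were not tested. Depth limits Gpnmb, Pmel and other genes near 0 most.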
